A study of Mus musculus with 9 samples.

Results

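The p53 target genes described here are 10 genes that p53 is known to activate, Cdkn1a, Mdm2, Bax, Bbc3, Ccng1, Trp53inp1, Btg2, Zmat3, Phlda3 and Fas, chosen by name out of 16521 gene IDs in the deposited data. All 10 were present, and all 10 passed the filter on low values in each comparison. The samples were 9 liver RNA samples of C57BL/6 mice, 3 in each of 3 groups. The normal group (n = 3, titled wt) was given saline. The model group (n = 3) was fed a methionine- and choline-deficient (MCD) diet, which induces fatty liver with inflammation. The SAR group (n = 3) had the same MCD diet and a high dose of sarsasapogenin (SAR), a plant steroid of Anemarrhena rhizome. The labels state no dose, sex, age or length of feeding, and not what the normal mice ate. The labels do not tie the samples to individual mice, so the p-values cover the spread among these samples alone, and that spread may be technical.

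The transcription factor p53 is kept scarce in healthy cells and is stabilised by DNA damage and other stress. It then switches on genes that stop the cell cycle, repair DNA, trigger apoptosis or, as Mdm2 does, bring p53 itself down again. In liver these genes are studied in hepatocyte injury and fatty liver, and several of them also answer to signals other than p53. Only transcripts were measured here, not p53 protein or its binding to DNA.

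p53 binds DNA at pairs of a half-site, a 10-base pattern around the core CNNG, and the promoters are shown because this is what the members are known to share. RefSeq promoter windows of build GRCm38.p6, from 250 bases before a start to 50 after it, were found for 8 members (Zmat3 and Trp53inp1 had no entry). The search allowed 0 to 13 bases between both half-sites, and as the pattern reads alike on both strands, 1 pass covers them. A pair without mismatch was found in 1 member, Cdkn1a, and in 0.0731% of 32851 windows. At least 1 half-site was found in 4 members, Cdkn1a, Bax, Mdm2 and Ccng1, and in 8.36% of windows. With 1 mismatch allowed in each half-site outside the core C and G, 2 members held a pair, Cdkn1a and Ccng1, against 2.71% of windows. In these sequences, which run 5′ to 3′ on the strand of the gene, capitals mark the half-sites.
Cdkn1a, chr17:29090891-29090952, plus strand: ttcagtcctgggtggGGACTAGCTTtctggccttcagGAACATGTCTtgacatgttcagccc
Cdkn1a, chr17:29090913-29090962, plus strand, 1 mismatch: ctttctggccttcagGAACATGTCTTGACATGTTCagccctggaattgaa
Ccng1, chr11:40755447-40755496, minus strand, 1 mismatch: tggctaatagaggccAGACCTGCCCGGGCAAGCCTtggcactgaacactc
Bax, chr7:45467075-45467114, minus strand: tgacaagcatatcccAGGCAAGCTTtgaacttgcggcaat
Mdm2, chr10:117710920-117710959, minus strand: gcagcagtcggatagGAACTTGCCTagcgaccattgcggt
The pair without mismatch in Cdkn1a spans 73 to 42 bases before the start, with 12 bases between its half-sites. In Ccng1 the pair spans 195 to 176 bases before the start, and the half-sites of Bax and Mdm2 begin 201 and 186 bases before it. The Cdkn1a sites lie before the more distal of its 2 starts in the table, at position 29090979 of chromosome 17. The pair of adjoining half-sites stands 2841 to 2822 bases before the other start, at 29093769. No half-site without mismatch was found in the windows of Bbc3, Btg2, Phlda3 and Fas, which says only that these letters are not there. A match describes sequence and does not show binding.

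Values per library are read numbers divided by size factors that put all 9 libraries on 1 scale, called normalised reads below, although the groups stand in 2 deposited tables. The files give group means, from which the reads of each library were worked out (16337 genes in all 9 libraries). Their replicate numbers are unknown, so the letters a, b and c rank them by size factor within a group and link nothing across groups. Model libraries held 12503819, 13320823 and 14939063 gene reads, the 3 normal libraries together 42836748 to 46355547, and the 3 SAR libraries 36076714 to 37470797. The hepatocyte marker Alb had means of 842230 in the normal and 738902 in the model group in the authors' deposited table and was not called there. Of the other hepatocyte markers, that deposited table called Cps1, Hpd, Tat, Apob and Apoa1 lower in the model group (log2 fold changes of -2.69, -2.27, -2.16, -1.19 and -0.65) and not Ttr or Asgr1. In SAR against model the authors' deposited table called Hpd, Tat, Ttr, Alb, Apob and Apoa1 higher (log2 fold changes of 1.76, 1.63, 1.06, 0.84, 0.76 and 0.76) and not Cps1 or Asgr1. The part of these changes in the results of the members was not tested. Asgr1, a hepatocyte receptor gene, stood at 2598, 2909 and 6946 in model libraries a, b and c and between 5835 and 9886 in the normal and SAR libraries. Normal library c stood apart in summed neutrophil markers, with 6525 normalised reads over 8 genes against 99.0 and 241 in the other normal libraries. Model library c stood apart in summed stellate cell markers, with 9850 over 8 genes against 21098 and 18383. Within that sum Col1a1, Col3a1, Acta2, Pdgfrb and Des were lowest of the group in library c. Lrat, Reln and Dcn were highest there, at 390, 702 and 5813. Model library c also stood apart in summed cholangiocyte markers, with 343 over 8 genes against 1473 and 1637. Calls that changed when a library was left out are stated with each member.

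The first comparison, of model with normal livers, asked which liver transcripts differed with the MCD diet. Phlda3, Bax, Btg2, Bbc3 and Ccng1 were higher in the model group, while Cdkn1a and Mdm2, a cell cycle inhibitor and the p53 antagonist often read as markers of p53 activity, did not pass the test. The test was limma on log2(normalised reads + 1) with Benjamini-Hochberg adjustment and a threshold of 0.05, on the scale of each comparison. Of the 10 members 5 were called higher, where the background was 20.2% of 12472 genes tested. None was called lower by limma (background 18.9%), none at an unadjusted p under 0.05 and none in the authors' deposited table (background 10.3%). Over all genes, 6261 of 12472 had an unadjusted limma p under 0.05 in either direction. Libraries were also scaled by their summed reads over the 16337 genes recovered in all 9 libraries, called scaling by recovered reads below. The background was then 28.9% higher and 10.8% lower, and the same 5 members were called. These sums leave out 184 genes, Alb among them. In the normal group 18469084 of 42836748 to 46355547 reads could be split by library. The groups did not overlap in the 5 members called higher (background 27.5%), and no member lay wholly lower (background 26.2%). The median log2 fold change was 0.47 over the members and 0.03 over all genes tested. The authors' deposited table called 4 of the 10 higher (background 13.2%), with Ccng1 missing the threshold there.

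**Figure D1:**
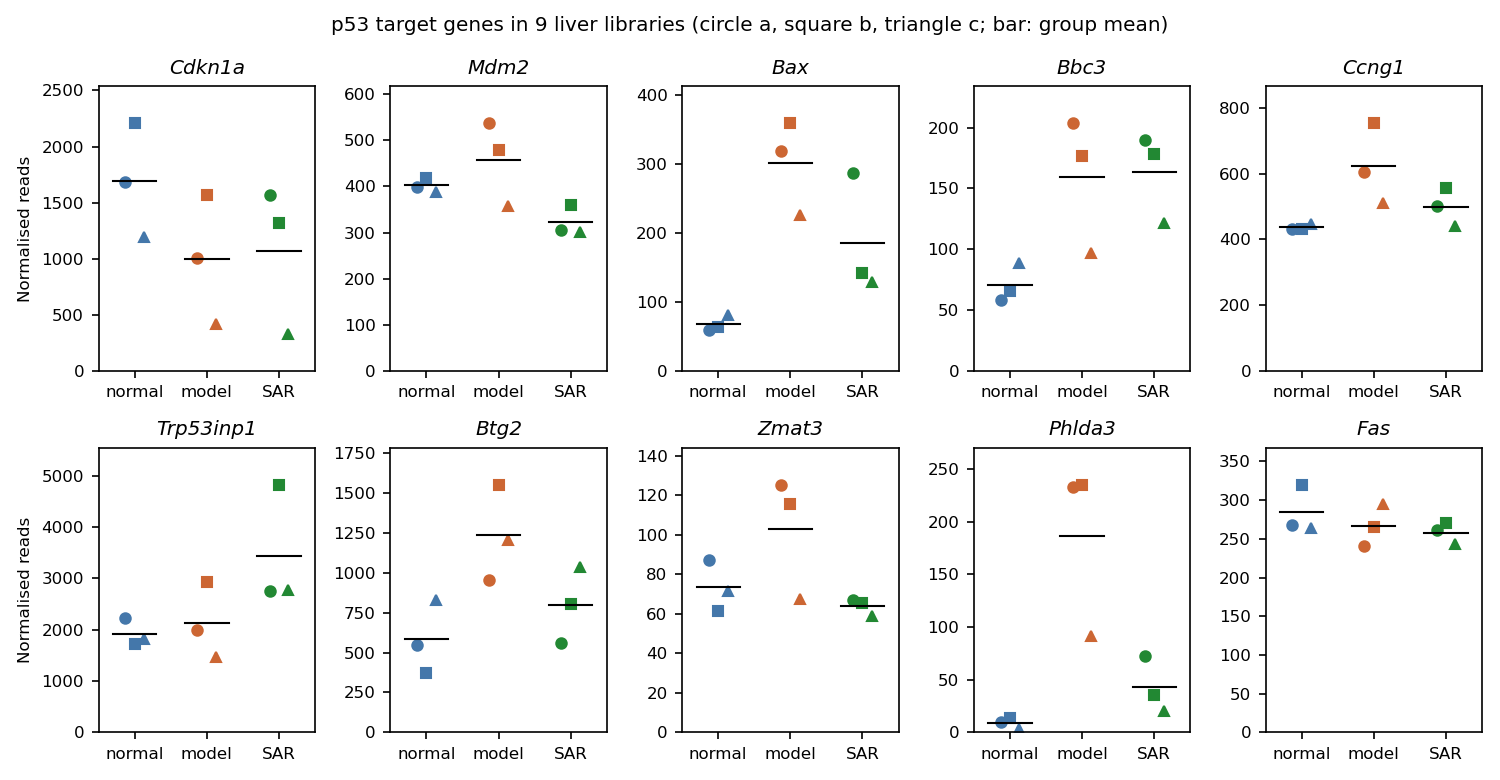
Normalised reads (linear axis from 0, scale common to 9 libraries) of each member in the normal, model and SAR groups; each point is 1 library and the bar is the mean of 3. Phlda3 is the member whose groups are all separate, with normal at 3.31 to 14.1, SAR at 20.5 to 72.8 and model at 91.6 to 235, whereas Cdkn1a and Fas overlap in every pair of groups.

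Of the genes that restrain growth signals and the cell cycle, Phlda3 (ENSMUSG00000041801), which encodes an inhibitor of AKT, had the highest fold change of the members. It stood at 9.61, 14.1 and 3.31 normalised reads in normal libraries a, b and c and at 233, 235 and 91.6 in model libraries a, b and c. All model libraries lay above all normal ones, and model library c lay lowest of its group. It rose by 4.31 on the log2 scale (SE 0.57, limma adjusted p = 0.00227) and passed with any 1 library left out (limma adjusted p at most 0.0170). In the normal libraries it rested on 10, 13 and 3 reads.

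Cdkn1a (ENSMUSG00000023067) encodes the CDK inhibitor p21, which halts the cell cycle, and its exons overlap a gene on the opposite strand whose reads may be included. It stood at 1685, 2208 and 1190 in the normal libraries and at 1010, 1571 and 418 in the model libraries. The groups overlapped, and the spread within each was wide. The log2 fold change of -0.91 (95% interval -1.98 to 0.16) did not pass (limma adjusted p = 0.148). Without both library c of the normal group and library c of the model group, a setting chosen after seeing the data, it was -0.61 and passed (limma adjusted p = 0.0186).

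Btg2, an antiproliferative gene that is also induced early by growth signals, stood at 545, 373 and 832 in the normal libraries and at 953, 1551 and 1206 in the model libraries. The lowest model library lay above the highest normal one, by less than the range within the model group. It rose by 1.14 on the log2 scale (SE 0.30, limma adjusted p = 0.0223). The adjusted p was 0.0676, 0.0606 and 0.0833 when normal library a, normal library b or model library b was left out. Ccng1, which encodes cyclin G1, stood at 433, 430 and 447 in the normal libraries and at 604, 754 and 510 in the model libraries. Its rise was the smallest of those called, at log2 0.50 (SE 0.16, limma adjusted p = 0.0447). That call was lost without any 1 of the normal libraries or model library a or b (limma adjusted p 0.0656 to 0.153).

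Both apoptosis genes of the BCL2 family rose. Bax (ENSMUSG00000003873), whose protein opens the outer mitochondrial membrane and whose exons overlap another gene on the same strand, stood at 59.6, 63.8 and 81.7 in the normal libraries and at 319, 359 and 226 in the model libraries. The model libraries lay far above the normal ones, with library c again lowest. It rose by 2.12 on the log2 scale (SE 0.23, limma adjusted p = 0.00139), and the call held with any 1 library left out (limma adjusted p at most 0.0120). Bbc3, which encodes the BH3-only protein PUMA, stood at 58.6, 65.9 and 88.3 in the normal libraries and at 204, 177 and 97.2 in the model libraries. Model library c was close to the highest normal library. It rose by 1.11 on the log2 scale (SE 0.31, limma adjusted p = 0.0267). Leaving out normal library a or b brought the adjusted p to 0.0879 and 0.0715, and leaving out a or b of the model group to 0.102 and 0.0988.

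Fas, the death receptor gene of the members, stood at 268, 320 and 264 in the normal libraries and at 241, 265 and 295 in the model libraries. The groups overlapped throughout, and the interval of the log2 difference, ran from -0.43 to 0.26 (limma adjusted p = 0.674).

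Mdm2, the ubiquitin ligase that degrades p53, stood at 399, 418 and 389 in the normal libraries and at 537, 479 and 357 in the model libraries. Library c of the model group lay below every normal library and the other model libraries above them. The log2 fold change was 0.17 (95% interval -0.23 to 0.57, limma adjusted p = 0.451). Trp53inp1, a stress protein that enhances p53 and takes part in autophagy, had a log2 fold change of 0.11 (95% interval -0.50 to 0.71, limma adjusted p = 0.764), with 1720 to 2234 in the normal and 1470 to 2928 in the model group. Zmat3, an RNA-binding zinc finger gene, stood at 61.6 to 87.5 in the normal group and at 125, 116 and 67.7 in model libraries a, b and c. Its log2 fold change of 0.45 did not pass (limma adjusted p = 0.247), and without model library c it was 0.72 and passed (limma adjusted p = 0.0449).

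**Figure D2:**
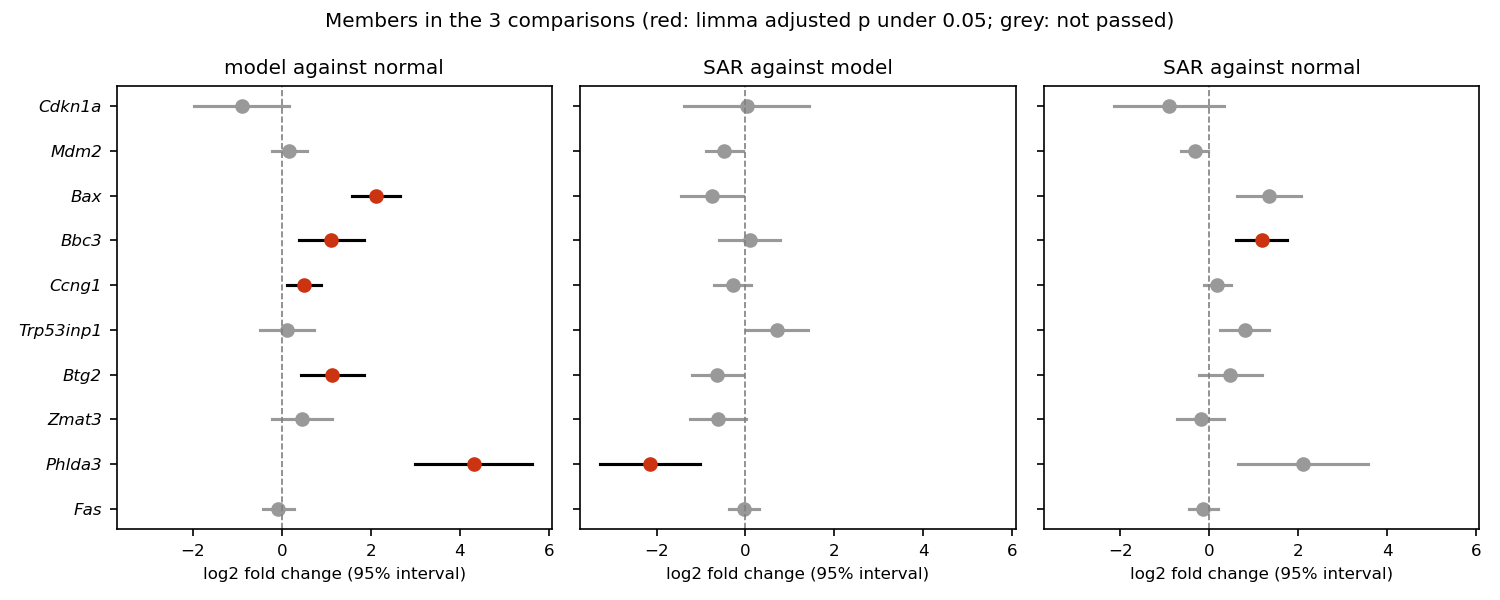
Log2 fold change (horizontal axis) of each member with its 95% interval in the 3 comparisons, from limma; red marks an adjusted p under 0.05. In model against normal, Phlda3, Bax, Btg2, Bbc3 and Ccng1 are red, in SAR against model Phlda3, and in SAR against normal Bbc3.

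The rest of the p53 pathway was followed in lists of other genes. Trp53 itself stood at 249, 225 and 235 in the normal libraries and at 611, 652 and 324 in the model libraries. It rose by 1.10 on the log2 scale (SE 0.26, limma adjusted p = 0.0148), and the adjusted p rose to 0.0619 and 0.0586 when model library a or b was left out. Of 14 genes tested for p53 and its regulators, Trp53 included, 4 rose, 2 fell and 8 did not pass. The checkpoint kinase gene Chek2 rose from 7.17 ± 3.16 to 50.1 ± 16.2 normalised reads (SD, n = 3, log2 2.69, limma adjusted p = 0.00548). Chek1, the other checkpoint kinase gene, rose as well (log2 3.11, limma adjusted p = 0.0234, lost without any 1 model library), as did Mdm4, another inhibitor of p53 (log2 0.70, limma adjusted p = 0.0147, and 0.0534 without normal library a). Cop1 and Usp7, a ubiquitin ligase and a deubiquitinase that act on p53, fell (log2 fold changes of -0.41 and -0.38, limma adjusted p = 0.0428 and 0.0440). The authors' deposited table called neither (adjusted p = 0.285 and 0.310), and fits without single libraries were not listed for them.

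Over 46 other p53 targets tested on 4 lists, 17 rose (37.0%) and 6 fell, beside 20.2% and 18.9% of all genes, and their median log2 fold change was 0.65. The lists were chosen with earlier results of these data known, so these shares describe the lists and test nothing. Psrc1, Tnfrsf10b, Eda2r and Ckap2 had normal means of 0.81, 3.44, 7.24 and 7.61 on the scale of the comparison. They passed the filter, a mean of at least 10 over both groups, only through the model group. Of 13 targets of arrest and repair, 7 rose and 6 did not pass. They were led by Psrc1 and Ckap2, both of the mitotic spindle, by the growth arrest gene Gadd45a, from 9.71 ± 8.84 to 86.6 ± 24.0 normalised reads (SD, n = 3, log2 3.32, limma adjusted p = 0.00569), and by the kinase gene Plk2 (log2 2.26, limma adjusted p = 0.00275). Psrc1 had 2 reads in all normal libraries together and 284 in the model libraries, a ratio after scaling of 103 with an exact 95% counting interval of 28.3 to 856. That interval covers read counting alone and not the spread among libraries, with 91.8, 92.1 and 27.9 normalised reads in model libraries a, b and c. By limma Psrc1 rose by log2 5.36 (limma adjusted p = 0.00217). Of 16 targets of cell death, 8 rose, 2 fell and 6 did not pass. Tnfrsf10b, the TRAIL receptor gene, rose from 3.10 ± 0.83 to 56.4 ± 31.5 (SD, n = 3, log2 3.67, limma adjusted p = 0.00431), and Eda2r, Dram1 and Apaf1, a receptor, an autophagy gene and the apoptosome scaffold, rose by log2 3.46, 2.17 and 1.37. The call of Ckap2 was lost without model library a or b (limma adjusted p up to 0.0573). That of Eda2r was lost without normal library a or model library a or b (limma adjusted p up to 0.128).

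Targets of metabolism and redox went the other way, with 4 of 11 lower and 7 not passing. Lpin1, a phosphatidate phosphatase gene of fat metabolism, fell from 6250 ± 219 to 1044 ± 285 (SD, n = 3, log2 -2.61, limma adjusted p = 7.48e-04). Pank1, a coenzyme A synthesis gene, Dcxr, a sugar reductase gene, and Tigar, a regulator of glycolysis, fell (log2 fold changes of -1.88, -1.28 and -0.85). Pank1 was lost without normal library a or model library a or b, Dcxr without model library a or b, and Tigar without normal library a or model library b (limma adjusted p at most 0.0660). Among 6 targets that signal between cells, Gdf15 and the matrix protein gene Thbs1 (log2 2.71) rose and 4 did not pass. The stress cytokine gene Gdf15 went from 57.5 ± 24.3 to 455 ± 92.9 (SD, n = 3, log2 3.05, limma adjusted p = 0.00149).

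The partners of the members moved in part. Of 13 other BCL2 family genes 5 rose and 2 fell, among them the survival gene Bcl2, from 29.9 ± 14.1 to 145 ± 34.1 (SD, n = 3, log2 2.31, limma adjusted p = 0.00381), the BH3-only gene Bcl2l11 (log2 0.99) and the mitophagy gene Bnip3, which fell (log2 fold change -2.22). The survival gene Bcl2a1d rose by log2 3.05, but its reads can be shared with near-identical copies. Of 12 genes listed for Fas ligand, adaptors and caspases, Fasl rose, Cycs and Cflar fell (log2 fold changes of -0.63 and -0.56) and 9 did not pass. Both falls were lost without normal library a or b or model library a or b (limma adjusted p at most 0.0805). That of Cflar was also lost with scaling by recovered reads (limma adjusted p = 0.139). Fasl, the ligand gene of cytotoxic lymphocytes, stood at 2.88, 6.48 and 2.21 in the normal and 20.1, 9.13 and 20.7 in the model libraries (limma adjusted p = 0.04995), and it missed the threshold in each of the 4 fits without 1 library in which it passed the filter (0.0519 to 0.122). Casp8, the caspase that Fas recruits, stood at 582 ± 67.6 and 594 ± 55.3 (SD, n = 3, limma adjusted p = 0.858). Of 4 other CDK inhibitor genes tested Cdkn1c and Cdkn2c rose, by log2 2.36 and 1.18. Of 12 cyclins, CDKs and proliferation genes 8 rose, among them Ccnb1, Mki67, Cdk1, Ccna2 and Ccnd1, and Mki67 went from 72.5 ± 69.8 to 480 ± 225 (SD, n = 3, log2 3.04, limma adjusted p = 0.0112). The calls of Ccnb1 and Ccna2 were lost without model library a or b, that of Ccna2 also without normal library a, and that of Ccnd1 without model library a (limma adjusted p at most 0.0993). The 8 genes that are family relatives of members, such as Btg1 and Ccng2, did not pass.

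**Figure D3:**
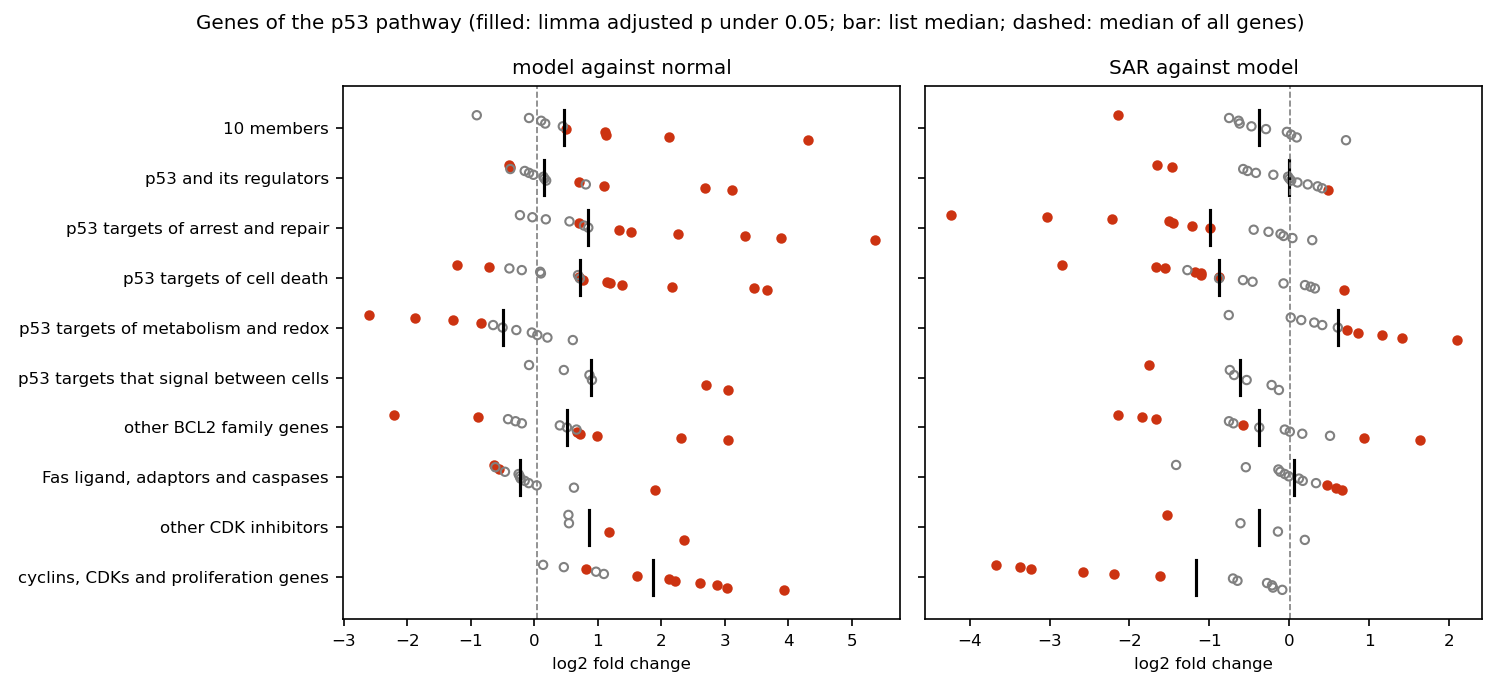
Log2 fold change (horizontal axis) of each tested gene of the members and 9 pathway lists, in model against normal and SAR against model; filled points have a limma adjusted p under 0.05, the bar is the median of the list and the dashed line the median of all genes. In model against normal, points of metabolism and redox lie mostly to the left (median -0.50) and those of arrest and repair to the right (median 0.85).

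Markers of other cells differed between the same groups. Summed macrophage markers (8 of 8 measured) ran from 3731 to 4107 normalised reads in the normal group, from 13020 to 14405 in the model group and from 4065 to 5570 in the SAR group. Of these 8 markers, 6 rose in model against normal, Clec4f fell (log2 fold change -1.12) and Adgre1 did not pass. In SAR against model 7 fell. Summed T and NK cell markers (7 of 8) ran from 81.1 to 127, from 508 to 672 and from 156 to 282 in the normal, model and SAR groups. Summed stellate cell and fibroblast markers (8 of 8) ran from 1013 to 4089, from 9850 to 21098 and from 3341 to 5862. Cholangiocyte markers (8 of 8) summed to 213 to 356, 343 to 1637 and 267 to 500, and 6 of 7 tested rose in model against normal and 4 fell in SAR against model. Endothelial markers (8 of 8) summed to 1681 to 3592, 1453 to 1725 and 950 to 1885, and 3 of 8 fell in model against normal and 1 in SAR against model. Neutrophil markers (8 of 8) summed to 99.0 to 6525, 1220 to 2609 and 219 to 600, and of 7 tested 1 rose in model against normal and 6 fell in SAR against model. No marker of these lists that was in the tables had 0 reads over a group. Their part in the results of the members was not tested, and in whole liver fewer cells of a type and less RNA per cell cannot be told apart.

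The next comparison, of SAR with model livers, asked what differed when sarsasapogenin was given with the diet. Phlda3 was lower with SAR, and the other 9 members did not pass. The 1 member called lower stands beside 16.2% of 12448 genes tested. None was called higher by limma (background 13.2%), 1 was higher at an unadjusted p under 0.05 and the authors' deposited table called none higher (background 6.79%). At an unadjusted p under 0.05, 4 were lower, where 5313 of the 12448 genes tested passed that threshold in either direction. The authors' deposited table also called Phlda3 lower and no other member (background 9.76%). On the scale of the comparison Phlda3 was the member whose groups did not overlap (background 23.3% for lower and 21.9% for higher). With libraries scaled by recovered reads the background was 6.48% higher and 22.9% lower. In that setting 4 members were called lower, Phlda3, Bax, Btg2 and Mdm2. The median log2 fold change was -0.38 over the members and 0.01 over all genes. This comparison uses the same model libraries as the comparison with normal liver.

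Phlda3 stood at 72.8, 35.1 and 20.5 normalised reads in SAR libraries a, b and c, all below the lowest model library at 91.6. It fell by 2.14 on the log2 scale (SE 0.50, limma adjusted p = 0.0141). Without model library a, model library b or SAR library b the adjusted p was 0.0591, 0.0609 and 0.0550, with log2 fold changes of -1.92, -1.91 and -2.10.

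Of the apoptosis genes, Bax stood at 286, 142 and 128 in the SAR libraries, and SAR library a lay within the range of the model group. The log2 fold change was -0.75 (95% interval -1.46 to -0.05, limma adjusted p = 0.0977), and it passed without model library c (0.0312) or SAR library a (0.0152). Bbc3 stood at 190, 178 and 122 in the SAR libraries, within the model range of 97.2 to 204. Its log2 difference was 0.09 (95% interval -0.58 to 0.77, limma adjusted p = 0.833). Fas stood at 243 to 270 in the SAR group, with a log2 difference of -0.03 (95% interval -0.37 to 0.31, limma adjusted p = 0.898).

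Among the cell cycle genes Cdkn1a varied most within the group. It stood at 1565, 1322 and 326 in the SAR libraries, about the range of the model group, and its log2 difference of 0.02 had a 95% interval from -1.38 to 1.43 (limma adjusted p = 0.981). Btg2 stood at 557, 802 and 1032, with 2 of the 3 libraries below the lowest model library (log2 -0.63, 95% interval -1.21 to -0.05, limma adjusted p = 0.0918). Ccng1 stood at 500, 557 and 440 (log2 -0.29, limma adjusted p = 0.251).

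Mdm2 stood at 306, 360 and 302 in the SAR libraries, and SAR library b just above model library c made the groups overlap. The log2 fold change of -0.47 did not pass (95% interval -0.89 to -0.05, limma adjusted p = 0.0835) and was -0.65 and passed without model library c (0.0106). Zmat3 stood at 66.8, 65.4 and 59.1, close together and just below model library c at 67.7, while on the scale of the comparison itself the groups overlapped (log2 -0.62, limma adjusted p = 0.119, and 0.0141 without model library c). Trp53inp1 was the member with the highest positive difference. It stood at 2747, 4826 and 2766 in the SAR libraries against 2003, 2928 and 1470 in the model libraries (log2 0.71, 95% interval 0.01 to 1.41, limma adjusted p = 0.112).

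In the same comparison Trp53 stood at 435, 270 and 360 in the SAR libraries and did not pass (log2 -0.52, limma adjusted p = 0.193, and -0.84 with 0.00822 without model library c), nor did Mdm4 (log2 -0.42, limma adjusted p = 0.158). Of the 14 genes tested for p53 and its regulators, Chek2 and Chek1 fell (log2 fold changes of -1.65 and -1.47). The ubiquitin ligase gene Rchy1 rose by log2 0.48. Chek1 was lost without any 1 library, Chek2 without model library a or b or SAR library a or b, and Rchy1 without any 1 except model library c (limma adjusted p at most 0.149). Of the 46 other p53 targets, 15 fell (32.6%) and 6 rose, beside 16.2% and 13.2% of all genes, with a median log2 fold change of -0.45. These shares too only describe lists chosen with earlier results known. Psrc1, Ckap2 and Tnfrsf10b, with SAR means of 9.13, 7.09 and 6.30 on the scale of the comparison, passed the filter through the model group. Of 13 targets of arrest and repair 7 fell and 6 did not pass, led by Ckap2, Psrc1, Sfn and Gtse1. These 4 calls were lost without model library a or b, that of Psrc1 also without SAR library b and that of Gtse1 without SAR library b or c (limma adjusted p at most 0.156). Of 16 targets of cell death 7 fell, Ei24 rose and 8 did not pass. Tnfrsf10b fell to 6.11 ± 1.95 normalised reads (SD, n = 3, log2 -2.84, limma adjusted p = 0.00783, and 0.0541 without model library b). Apaf1 fell to 41.6 ± 7.36 (SD, n = 3, log2 -1.66, limma adjusted p = 0.00403), and Dram1 and the BH3-only gene Pmaip1 fell (log2 fold changes of -1.55 and -1.18), the latter lost without model library a or b or SAR library b (limma adjusted p at most 0.0895).

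Targets of metabolism and redox rose in 5 of 11 cases, and 6 did not pass. Lpin1 rose to 4344 ± 587 (SD, n = 3, log2 2.10, limma adjusted p = 8.27e-04), and Pank1, Dcxr and Aldh4a1, the last a proline catabolic enzyme gene, rose by log2 1.41, 1.16 and 0.86. Pank1 and Aldh4a1 were lost without any 1 library except model library c, and Dcxr without model library a or b or SAR library b or c (limma adjusted p at most 0.129). Of the signalling targets Thbs1 fell (log2 fold change -1.76, lost without model library a or b or SAR library a or c) and 5 did not pass. Gdf15, at 456, 212 and 191 in the SAR libraries, had a log2 fold change of -0.74 (limma adjusted p = 0.104, and 0.0104 without SAR library a). Of 13 other BCL2 family genes 4 fell and 2 rose. Bcl2 fell to 31.7 ± 8.26 (SD, n = 3, log2 -2.15, limma adjusted p = 0.00182), and Bmf, a BH3-only gene, fell as well (log2 fold change -1.67), as did Bcl2a1d (-1.84), whose reads can be shared with its copies. Bnip3 rose by log2 1.64, although its groups overlapped, and missed the threshold when model library a or b or SAR library b or c was left out (limma adjusted p at most 0.109). Of the genes listed for Fas ligand, adaptors and caspases, Cflar, Casp6 and Xiap rose by log2 0.66, 0.59 and 0.48. All these calls were lost without model library b or SAR library b, those of Casp6 and Xiap also without model library a or SAR library c. The other 9 did not pass, Fasl (limma adjusted p = 0.132) and Casp8 (limma adjusted p = 0.814) among them.

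Of the other CDK inhibitors Cdkn1c fell (log2 fold change -1.53, lost without model library a or b or SAR library b or c) and 3 did not pass. Proliferation genes fell in 6 of 12 cases, with Mki67 at 51.5 ± 28.6 (SD, n = 3, log2 -3.24, limma adjusted p = 0.00279), Ccnb1 at 8.20 ± 0.87 (SD, n = 3, log2 -3.67, limma adjusted p = 0.0020), and Ccnd1 with a log2 fold change of -1.62 (limma adjusted p = 0.0209, lost without SAR library b or c). Ccna2 and Top2a, a cyclin and a topoisomerase gene of dividing cells, fell as well (log2 fold changes of -3.38 and -2.58), and Ccna2 had a limma adjusted p of 0.0512 without model library b. Of the family relatives of members, Trp53inp2 and Tob2 rose, the latter lost without model library a or b or SAR library b. Trp53inp2, the paralogue of Trp53inp1 that acts in autophagy, went from 1740 ± 198 to 3955 ± 147 (SD, n = 3, log2 1.20, limma adjusted p = 0.00205). The marker sums given above for macrophages, T and NK cells, neutrophils and stellate cells were lower in each SAR library than in each model library. Their part in these results was not tested.

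SAR and normal livers were compared to see which members still differed from normal liver. Bbc3 was higher in the SAR group, and the other 9 members did not pass. The 1 member called higher stands beside 1.74% of 11518 genes tested. None was called lower by limma (background 1.81%). At an unadjusted p under 0.05, 4 members were higher and 1, Mdm2, was lower, beside 3017 of 11518 genes in either direction. Bbc3 lay 1.18 higher on the log2 scale (SE 0.25, limma adjusted p = 0.0443), lost without any 1 library except normal library c (limma adjusted p 0.0613 to 0.140). Bax had 1.34 (SE 0.31, limma adjusted p = 0.0552, and 0.0277 without normal library c), Phlda3 2.11 (SE 0.64, limma adjusted p = 0.0914) and Trp53inp1 0.80 (SE 0.24, limma adjusted p = 0.0894). The libraries of these 4 genes did not overlap between SAR and normal liver (background 15.9% for higher), and all SAR libraries of Mdm2 lay below all normal ones (background 17.3% for lower, log2 -0.32, limma adjusted p = 0.172). Trp53 stood higher in each SAR library than in each normal one and did not pass (log2 0.56, limma adjusted p = 0.109). Gdf15 (log2 2.28, limma adjusted p = 0.0337) and Cdkn2c (log2 1.35, limma adjusted p = 0.0337) rose, and both were lost without any 1 library except normal library c. Of 43 other p53 targets tested, Gdf15 was the 1 called higher (2.33%) and 0 were lower, close to the shares of 1.74% and 1.81% over all genes. Their median log2 fold change was 0.01.

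The order of the 3 group means differed between members. Bax, Ccng1, Btg2 and Phlda3 ran from normal over SAR to model, and in Phlda3 alone did both neighbouring pairs not overlap. Bbc3 and Trp53inp1 ran from normal over model to SAR, with model and SAR overlapping in both. Mdm2 and Zmat3 ran from SAR over normal to model, and for Cdkn1a (model, SAR, normal) and Fas (SAR, model, normal) all neighbours overlapped. Library c was the lowest of the model group in 8 of 10 members, while it was lowest in 40.9% of 12203 genes. SAR library c was the lowest of its group in 8 of 10 members and in 31.0% of genes. In the normal group the lowest library was a for 2 members, b for 4 and c for 4.

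The pattern of Cdkn1a over the 9 libraries, compared with 12203 genes by the root mean square difference of centred log2 values, was most like that of Arntl, which encodes the core clock factor BMAL1 (difference 0.36). Arntl stood at 174, 277 and 85.0 normalised reads in the normal, 155, 141 and 27.1 in the model and 122, 128 and 29.5 in the SAR libraries. In both genes library c was the lowest of each group. The next were Lgalsl, a galectin-like gene (0.44), Cldn1, a tight junction gene (0.46), the threonyl-tRNA synthetase gene Tars (0.48) and the calcium pump gene Atp2b2 (0.48). Among the other members Mdm2 was nearest to Cdkn1a, at 0.81 but only rank 989 over all genes compared, and Phlda3 farthest, at 2.17 (rank 11995). The points share libraries and depth, and no test was made.

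**Figure D4:**
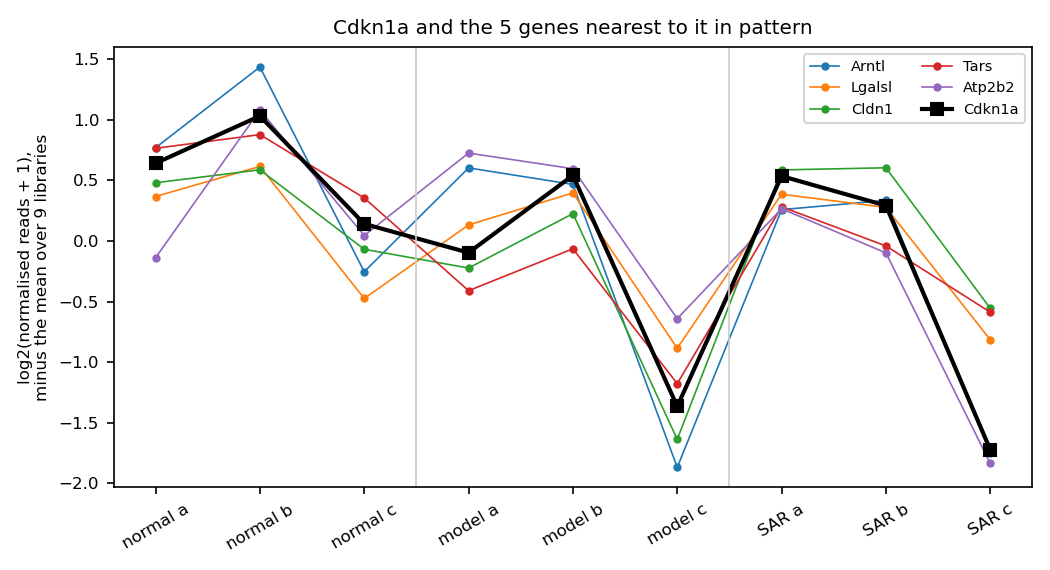
Log2(normalised reads + 1) minus its mean over the 9 libraries (vertical axis) of Cdkn1a (black) and its 5 nearest genes, by library (horizontal axis); lines only join the values of a gene, since libraries have no order. Cdkn1a drops in model library c (418 normalised reads) and SAR library c (326), as Arntl does.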

How the data were processed

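The authors deposited 2 tables, model against normal and SAR against model. Each signal value is a group mean of read counts divided by DESeq size factors, per the file headers, with no values per sample. The deposited fold is the ratio of these means, the deposited log2 value its log2, and both p-value columns that the authors deposited come from DESeq. The submitters' processing notes name mm9. The aligner, counter, annotation and strand setting were not given in the sources used here, so overlapping genes could share reads. In GENCODE M21 (GRCm38) Bax shares 192 exon bases with Gm45808 on the same strand and Cdkn1a 273 with AC167363.2 on the opposite strand; the other members share none.

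Since each mean, printed to 15 digits, adds up 3 libraries' whole reads times a constant per library, reads could be solved for. The constants were read from genes with 1 read in a group, and every combination of read numbers was searched, up to 50000 reads a group where 1 table was used. A single solution was found for 15015 of 15080 normal means tried (65 had several), 15010 of 15010 SAR means and, with both tables, 16057 of 16057 model means. Of 14213 model genes also solved from each table alone, 14213 were identical. Of 2000 means moved slightly 0 were solved, against 2000 of 2000 unmoved. The 184 genes not recovered in all 9 libraries were left out where missing. Reads were divided by the authors' size factors within a table. For SAR against normal and for all 9 libraries, medians of ratios were used, which differed from the authors' factors by at most 0.597% where both exist.

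The design named limma 3.58.1 (R 4.3.3) on log2(value + 1), with a trended variance, two-sided, for genes with a mean of at least 10. Fold changes on this scale understate those of low genes. The method was tested on simulated data. For limma the simulated reads had the same relative spread beyond counting for all genes. That spread was narrower than in genes such as Cdkn1a here, so the simulation does not cover them. The smallest exact permutation p of 3 against 3 is 0.1, so none was run. Symbols were matched for 16490 of 16521 IDs. All members are named. Of each pathway list, at most 4 called genes with the largest change per comparison are named, along with Trp53, Mdm4, Gdf15, Fasl, Casp8, Ccnd1 and Mki67; others named (Cop1, Usp7, Ei24, Btg1, Ccng2) were chosen after their values were seen. The members and lists were chosen with earlier results of these data known. Alternatives were other pseudocounts, filters and scalings, 1 fit of all libraries, the authors' deposited test and leaving out libraries.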

Additional observations from a re-analysis of the deposited data

How the results depend on the processing

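No called result reversed under any alternative run. The count of members higher in model against normal ran from 2 to 6 with 1 library left out, while pseudocounts of 0.5 and 5, filters of 50 or none, both other scalings and 1 fit of all 9 libraries kept 5 and the authors' deposited table gave 4. Without normal library c and model library c together, chosen after seeing the data, 6 were higher and 1, Cdkn1a, lower. In SAR against model the count lower was 4 with scaling by recovered reads (Phlda3, Bax, Btg2 and Mdm2). It was 2 in 1 fit of all 9 libraries (Phlda3 and Mdm2) and 0 to 4 with 1 library left out. In SAR against normal the count higher ran from 0 to 2 with 1 library left out, and in 1 fit of all 9 libraries Bax passed in place of Bbc3 (limma adjusted p = 0.0414 and 0.0522). Members with a pair of half-sites in the promoter numbered 1 without and 2 with 1 mismatch. The 184 genes not recovered in all 9 libraries are left out of scaling by recovered reads, and scaling by all reads was not run. Scaling by recovered reads moved the median log2 fold change of genes tested either way from 0.03 to 0.32 in model against normal. In SAR against model it moved from 0.01 to -0.27. Higher and lower calls went from 20.2% and 18.9% to 28.9% and 10.8%, and from 13.2% and 16.2% to 6.48% and 22.9%. The number of genes lower in model against normal was then 1347 rather than 2362, and higher in SAR against model 811 rather than 1638. With 1 library left out, genes higher ran from 1260 to 2853 and lower from 1166 to 2879 in model against normal, from 627 to 2526 and 918 to 2615 in SAR against model, and from 4 to 539 and 1 to 536 in SAR against normal, where 200 and 208 were called with all libraries. Fits without a library hold fewer samples; other causes were not tested. Of the called pathway genes that the naming rule selects (not Cop1, Usp7 or Ei24, for which such fits were not listed), 18 of 32 in model against normal and 10 of 31 in SAR against model passed in each such fit. No paired analysis was possible because the recovered libraries carry no replicate numbers. Low read numbers limit the precision of genes such as Phlda3, Tnfrsf10b, Chek1 and Psrc1 in normal liver.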
